A study of Mus musculus with 39 samples.

Results

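The 9 genes described here encode titin and proteins that sit with it in the cardiac sarcomere: Ttn, Actn2, Tcap, Ldb3, Myoz2, Nebl, Myom1, Myom2 and Mybpc3. They were taken by symbol from a table of 38293 genes counted in 39 RNA-seq libraries of mouse left ventricle, and all 9 were found and passed the filter on low counts. One set of C57BL6/J hearts, with no surgery, compared carriers of R14del with wild type hearts. R14del is a deletion of the arginine 14 codon in Pln, the gene for phospholamban, an inhibitor of the sarcoplasmic reticulum calcium pump. Homozygous (Pln R14del/R14del) and wild type hearts of 3 weeks and of 5 weeks gave 4 libraries per group. At 8 weeks there were homozygous (n = 4), heterozygous (Pln wt/R14del, n = 4) and wild type (n = 3) hearts. The surgery set was wild type for Pln: male mice of 12 weeks had the left anterior descending coronary artery closed for a time and reopened (ischemia-reperfusion, n = 4, taken 3 days later) or closed for good (infarction, n = 4, taken 8 weeks later, at an age of 20 weeks). Its 4 sham-operated hearts, 2 of 12 weeks and 2 of 20 weeks, were used as a single control group, and tissue came from myocardium remote from the infarct, so the injured zone itself was not sampled.

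Titin is a giant filament that spans from the Z-disc, where thin filaments of neighbouring sarcomeres are tied together, to the M-band, where thick filaments are tied together. At the Z-disc it binds alpha-actinin and telethonin, and at the M-band it binds the myomesins. Titin acts as a molecular spring and as a scaffold, and truncating variants of it are a known cause of dilated cardiomyopathy in humans.

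Library totals ran from 9.4 M to 19.32 M counts, and the 9 genes together took between 1.43% and 1.92% of them. No pair of replicates agreed within sampling noise. The labels name separate samples and number no animals, so a p-value here speaks only of the spread between samples, which may be technical. Counts per gene do not show the deletion, and the level of Pln therefore checks no genotype label. Markers of fast skeletal muscle, a list of 10 genes, summed to at most 11.9 CPM (counts scaled to a common, TMM-normalized library size) in any library. In bulk tissue, fewer cardiomyocytes and less RNA per cardiomyocyte cannot be told apart.

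In GRCm38, Ttn (ENSMUSG00000051747) lies on the minus strand of chromosome 2 from 76703980 to 76982547, with 116825 exonic bases. Actn2 (ENSMUSG00000052374) lies on chromosome 13 from 12269426 to 12340760, Tcap (ENSMUSG00000007877) on 11 from 98383811 to 98384953, and Ldb3 (ENSMUSG00000021798) on 14 from 34526603 to 34588682. Myoz2 (ENSMUSG00000028116) is on chromosome 3 from 123006206 to 123035015, and Nebl (ENSMUSG00000053702) on 2 from 17343909 to 17731464. Myom1 (ENSMUSG00000024049) is on chromosome 17 from 71002633 to 71126856, Myom2 (ENSMUSG00000031461) on 8 from 15057653 to 15133541, and Mybpc3 (ENSMUSG00000002100) on 2 from 91118144 to 91136516. Myl12a, on the opposite strand, shares 207 exonic bases with Myom1. Since the strand setting of the counting is not given in the sources used here, reads of that stretch cannot be assigned with certainty.

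Promoter windows from RefSeq (GRCm38.p6, 250 bases before to 50 after a start) were found for 7 of the 9 genes, with 11 windows in all. Tcap and Myom2 had no entry. The windows below are shown because each of these 5 genes fell at 5 weeks, after ischemia-reperfusion or in both, and because each window holds a match to the MEF2 motif or to the CArG box, the binding motifs of factors known from muscle genes. Not all such windows are printed. Nebl also fell after ischemia-reperfusion and has a window with a CArG box, which is left out, as is the other window of Ldb3. Capitals mark MEF2 and CArG matches and any match to GGAATG or TATAAA, on either strand, and none of these overlap in the windows printed. Each sequence runs 5′ to 3′ on the strand of its gene.
Ttn, chr2:76982498-76982797, minus strand: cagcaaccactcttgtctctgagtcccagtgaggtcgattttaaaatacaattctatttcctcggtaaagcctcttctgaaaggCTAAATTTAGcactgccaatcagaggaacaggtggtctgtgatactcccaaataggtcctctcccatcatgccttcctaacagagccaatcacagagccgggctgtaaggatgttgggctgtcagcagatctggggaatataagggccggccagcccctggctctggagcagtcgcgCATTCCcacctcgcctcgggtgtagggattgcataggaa
Myoz2, chr3:123034938-123035237, minus strand: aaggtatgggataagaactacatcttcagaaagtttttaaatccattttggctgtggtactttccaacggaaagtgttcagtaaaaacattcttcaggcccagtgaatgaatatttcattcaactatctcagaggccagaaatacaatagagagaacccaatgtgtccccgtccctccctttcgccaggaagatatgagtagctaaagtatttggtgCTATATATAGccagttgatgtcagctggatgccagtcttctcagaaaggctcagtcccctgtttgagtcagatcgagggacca
Mybpc3, chr2:91117894-91118193, plus strand: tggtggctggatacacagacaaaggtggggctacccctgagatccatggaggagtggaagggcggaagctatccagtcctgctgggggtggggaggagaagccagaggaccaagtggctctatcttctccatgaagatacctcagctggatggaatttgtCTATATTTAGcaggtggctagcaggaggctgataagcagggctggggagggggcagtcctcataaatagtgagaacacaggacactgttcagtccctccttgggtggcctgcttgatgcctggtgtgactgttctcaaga
Ldb3, chr14:34588632-34588931, minus strand: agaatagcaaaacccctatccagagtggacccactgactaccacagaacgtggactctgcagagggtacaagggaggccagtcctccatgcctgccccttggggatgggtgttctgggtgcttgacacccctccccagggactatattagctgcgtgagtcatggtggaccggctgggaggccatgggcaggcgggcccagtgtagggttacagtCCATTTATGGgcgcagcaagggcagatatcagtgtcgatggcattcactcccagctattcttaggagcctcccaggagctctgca
Myom1, chr17:71019307-71019606, plus strand: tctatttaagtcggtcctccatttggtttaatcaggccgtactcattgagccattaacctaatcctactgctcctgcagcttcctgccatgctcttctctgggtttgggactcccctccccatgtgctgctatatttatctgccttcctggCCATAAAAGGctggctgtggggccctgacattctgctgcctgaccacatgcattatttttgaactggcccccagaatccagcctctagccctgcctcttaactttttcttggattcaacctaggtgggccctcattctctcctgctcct

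A MEF2 match began 166 bases before the start of Ttn, 90 before that of Mybpc3 and 33 before that of Myoz2. A CArG box began 35 bases before the start of Ldb3 and 99 before that of Myom1, and was also held by 1 of the 4 windows of Nebl. Among all 32851 promoter windows of the table, 3.19% held a MEF2 match and 1.63% a CArG box. Of the 7 genes, 3 had a window with a MEF2 match and 3 had one with a CArG box. Counted by window, 3 of the 11 held a MEF2 match and 4 a CArG box. The windows of Ldb3 overlap and hold the same box. The window of Actn2 held neither, and that of Myom1 surrounds a RefSeq start inside the gene span given above. The muscle CAT motif GGAATG, which 14.7% of all windows held, was present for 2 of the 7 genes, in 2 of the 11 windows. The E-box CANNTG (72.3% of all windows) was present for 6 genes, in 8 of the 11 windows. The GC box GGGCGG (35.7%) was present for 3 genes, in 3 of the 11 windows. TATAAA, held by 13.6% of all windows, was in none of the 11.

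Levels per length differed widely between the 9 genes. On the RPKM scale (CPM per kilobase of exon), the mean over the 39 libraries was 1110.5 for Mybpc3, 1064 for Tcap and 616 for Actn2. Myoz2 had 272, Ldb3 185, Myom2 169 and Myom1 140.5 RPKM. Ttn at 32.6 and Nebl at 13.4 RPKM were 8th and 9th in each of the 10 groups. Mybpc3 stood first in 5 groups and Tcap in the other 5, so their order is not separated by these data. Myom2 moved between 4th and 7th place. The RPKM of Ttn rests on even coverage of a very long transcript, which was not tested.

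**Figure D1:**
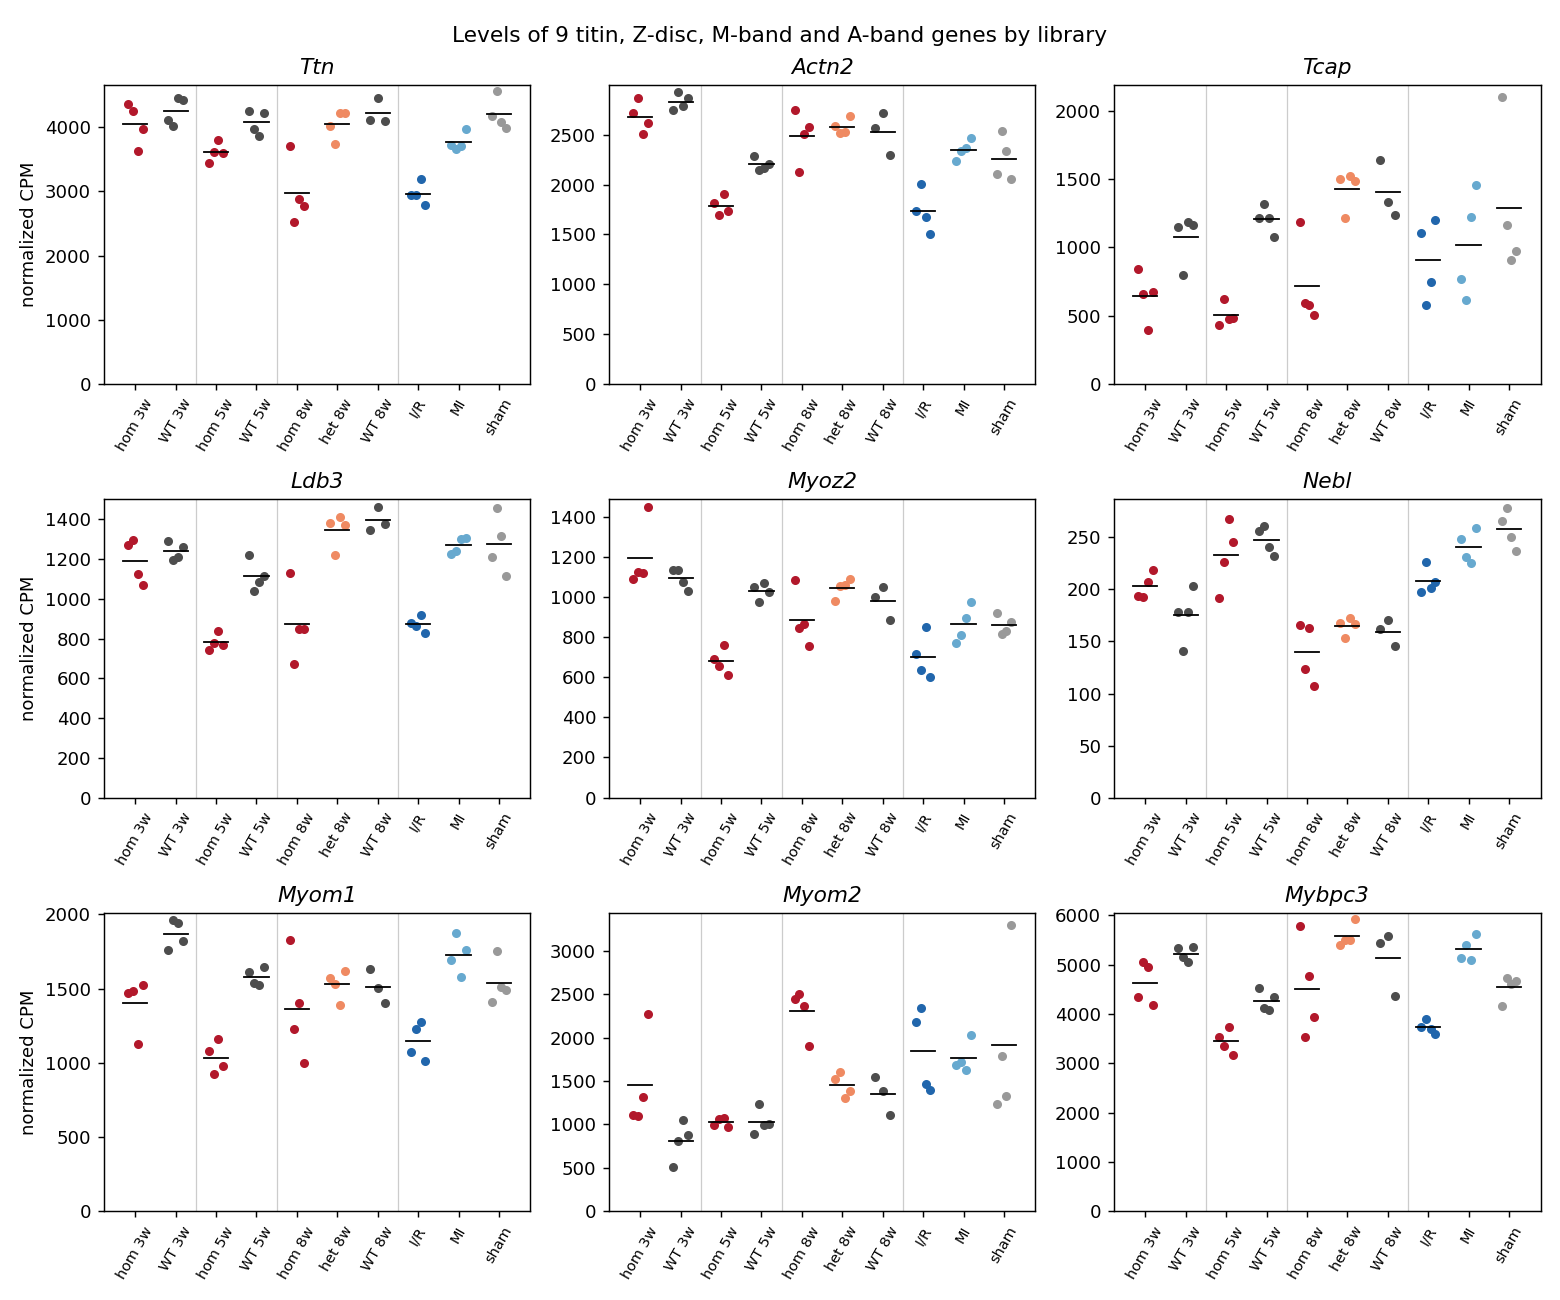
Normalized CPM of each of the 9 genes in every library, by group, on linear axes that start at 0. Points are libraries and horizontal bars are group means. In homozygous hearts Tcap sits low at 5 weeks and Myom2 high at 8 weeks, while Nebl is the lowest of the 9 genes throughout.

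Each comparison was fitted on all genes that passed the filter, with edgeR's quasi-likelihood test and Benjamini-Hochberg adjustment over all of them. A gene is said to have risen or fallen where its adjusted p was under 0.05. Changes are on the log2 scale with their SE, and levels are normalized CPM.

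At 3 weeks none of the 9 genes passed the test between homozygous and wild type hearts, where 0% of all 13427 genes tested passed. At an unadjusted p under 0.05 there were 3 of the 9 genes and 1515 of all genes. DESeq2 called 2 of the 9 (Tcap, adjusted p = 0.0207, and Myom1, adjusted p = 0.0146, both lower) and 118 of all genes, whereas limma-voom called none of either. Without homozygous replicate 2, edgeR called 4 of all genes and still none of the 9.

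At 5 weeks 6 of the 9 genes fell in homozygous hearts and none rose, against 43.7% of all genes called in either direction and 21.4% called lower. The median change of the 9 was -0.31, beside -0.00 over all genes. At 8 weeks 3 of the 9 fell and 1 rose in homozygous against wild type hearts, where 59.8% of all genes were called, 30.8% higher and 29.0% lower. Here the median was -0.21, beside 0.02 over all genes. The 8-week homozygous and heterozygous hearts gave the same counts of 3 lower and 1 higher, where 61.9% of all genes were called, 32.0% higher and 30.0% lower.

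After ischemia-reperfusion 6 of the 9 genes fell and none rose against sham, where 31.0% of all genes were called and 14.1% were lower. Their median change was -0.39 (-0.02 over all genes). After infarction none of the 9 passed, where 11.4% of all genes did. Of the 9, 1 had an unadjusted p under 0.05, as had 3656 of all 13611 genes. DESeq2 called 1 of the 9 (Mybpc3, adjusted p = 0.00214, higher) and limma-voom none. How many of all genes DESeq2 and limma-voom called there is not given here. The number of all genes called after infarction, 1550, fell to 957 without infarction replicate 1, to 663 without infarction replicate 2 and to 789 without the first 20-week sham. Ischemia-reperfusion and infarction share the shams, as the homozygous and heterozygous comparisons share the wild type hearts, so their values are given side by side.

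Scaling by library size alone moved the median change of all genes by 0.21 at 5 weeks, 0.16 at 8 weeks, 0.23 after ischemia-reperfusion and 0.11 after infarction. Under it Tcap, Myom1, Myoz2 and Ldb3 still fell at 5 weeks. Actn2 (adjusted p = 0.174) and Mybpc3 (adjusted p = 0.175) did not, and Ttn, Nebl and Myom2 had changes above 0. At 8 weeks Tcap, Ldb3, Ttn and Myom2 kept their calls against wild type. After ischemia-reperfusion Ttn and Ldb3 alone still fell, also against the age-matched 12-week shams.

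**Figure D2:**
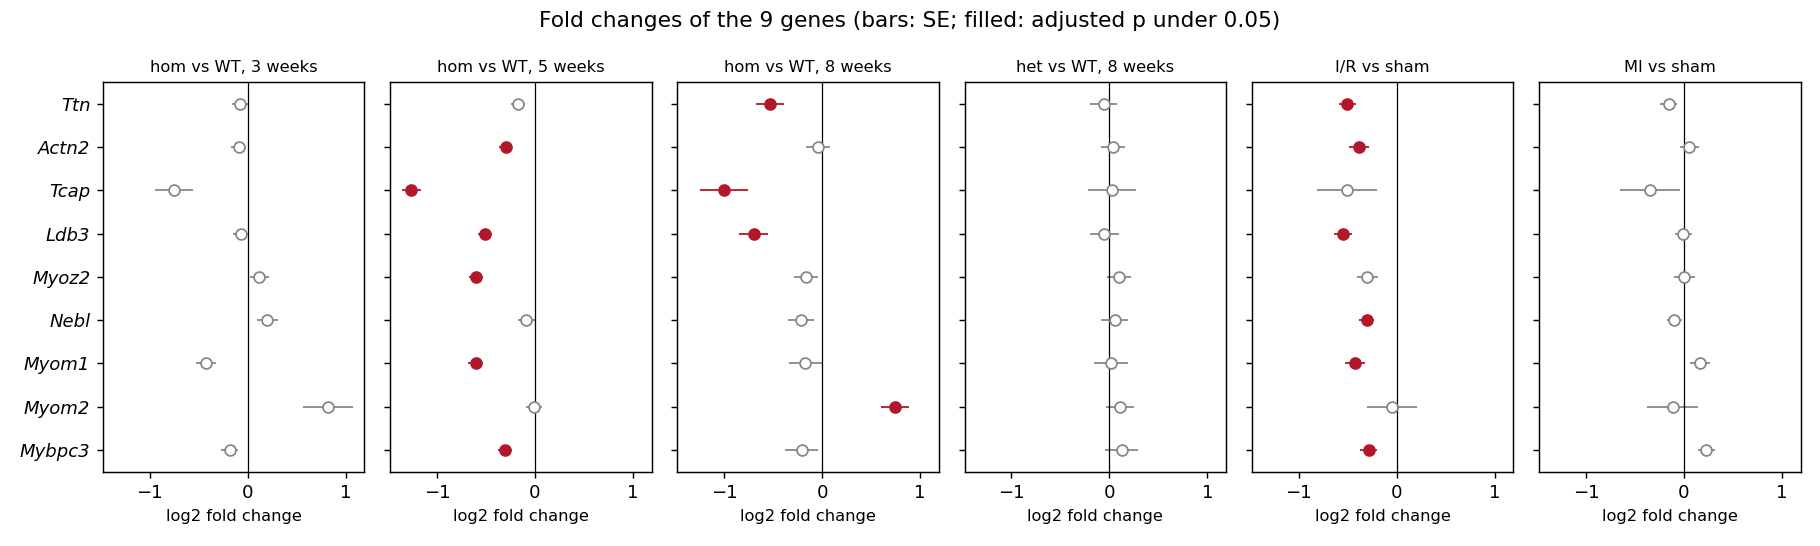
Log2 change of each of the 9 genes in the comparisons of homozygous, heterozygous and operated hearts with their controls. Bars are SE and filled points passed an adjusted p under 0.05. At 5 weeks and after ischemia-reperfusion 6 points each are filled on the lower side, and Myom2 at 8 weeks is filled on the higher side.

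Titin mRNA was lower in homozygous hearts at 8 weeks and after ischemia-reperfusion. At 8 weeks Ttn had 3701, 2527, 2885 and 2767 CPM in homozygous, 4019, 3739, 4223 and 4222 in heterozygous and 4115, 4459 and 4102 in wild type hearts. The homozygous libraries lay below all others of that age, with 1 of them close to the lowest heterozygous library. The change was -0.53 ± 0.14 (adjusted p = 0.00555) against wild type and -0.47 ± 0.13 (adjusted p = 0.00704) against heterozygous hearts.

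At 5 weeks Ttn had 3442, 3607, 3803 and 3602 CPM in homozygous hearts and 4248, 3973, 3863 and 4216 CPM in wild type hearts. The groups did not overlap, but the change of -0.17 ± 0.07 missed the threshold (adjusted p = 0.0559). It was called by DESeq2 (adjusted p = 0.0038), by limma-voom (adjusted p = 0.0352) and, in edgeR, without homozygous replicate 3 (adjusted p = 0.0151). At 3 weeks the level was 4053 ± 328 CPM in homozygous hearts and 4251 ± 223 CPM in wild type hearts (mean ± SD, n = 4 each), with overlapping groups.

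After ischemia-reperfusion Ttn had 2943, 2939.6, 3193 and 2786 CPM and after infarction 3731, 3669, 3711 and 3981 CPM. The shams had 4184 and 3994 CPM at 12 weeks and 4559 and 4090.2 CPM at 20 weeks. Neither operated group overlapped the shams. The change was -0.51 ± 0.09 (adjusted p = 0.000481) after ischemia-reperfusion and -0.16 ± 0.09 (adjusted p = 0.267) after infarction. Counts per gene do not show which titin isoforms were made.

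Among the Z-disc genes, Tcap had the largest change of the 9 at 5 and at 8 weeks. It encodes telethonin, the small cap that joins the ends of titin molecules. At 5 weeks homozygous hearts had 431, 622, 475 and 486 CPM and wild type hearts 1215, 1321, 1214 and 1077 CPM, a change of -1.26 ± 0.10 (adjusted p = 4.85e-09). All homozygous libraries lay far under all wild type ones. At 8 weeks Tcap had 1184, 592, 576 and 506 CPM in homozygous, 1499.7, 1213, 1526 and 1490.3 in heterozygous and 1645, 1334 and 1238 in wild type hearts. The first homozygous library lay just below the lowest heterozygous and wild type libraries and the other 3 far lower. In the fit Tcap stood at 0.499 times its wild type level (log2 SE 0.25, adjusted p = 0.00354), and the log2 change was -1.03 ± 0.23 (adjusted p = 0.00184) against heterozygous hearts.

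At 3 weeks Tcap had 841, 661, 395 and 672 CPM in homozygous hearts and 1148, 801, 1185 and 1166 CPM in wild type hearts. One library of each group crossed into the other's range, and the change of -0.75 ± 0.20 was not called by edgeR (adjusted p = 0.267). In the surgery set Tcap was spread widely within groups. It had 1109, 579.5, 749 and 1198 CPM after ischemia-reperfusion, 769.9, 613, 1221 and 1455 CPM after infarction, 2107 and 971 CPM in the 12-week shams and 1164 and 905 CPM in the 20-week shams. The first 12-week sham stood highest. Without it the change was -0.16 after ischemia-reperfusion and 0.01 after infarction, beside -0.50 ± 0.31 (adjusted p = 0.235) and -0.34 ± 0.31 (adjusted p = 0.514) with it.

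Ldb3 encodes ZASP (Cypher), a PDZ and LIM domain protein that binds alpha-actinin at the Z-disc. It fell in homozygous hearts at 5 and 8 weeks and after ischemia-reperfusion. At 5 weeks it had 745, 776, 838 and 769.6 CPM in homozygous hearts and 1223, 1041, 1088 and 1116 CPM in wild type hearts, with no overlap (change -0.51 ± 0.07, adjusted p = 7.21e-06). At 8 weeks the levels were 1131, 674, 849 and 850.1 CPM in homozygous, 1383, 1221, 1412 and 1371 in heterozygous and 1347, 1465 and 1377 in wild type hearts. Again the homozygous libraries were lowest, with changes of -0.70 ± 0.15 (adjusted p = 0.00129) against wild type and -0.65 ± 0.14 (adjusted p = 0.00126) against heterozygous hearts.

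After ischemia-reperfusion Ldb3 had 877, 865, 919.8 and 827 CPM, below 1213 and 1114 CPM in the 12-week and 1459.9 and 1315 CPM in the 20-week shams. That change was -0.55 ± 0.09 (adjusted p = 0.000316). After infarction the libraries, at 1226, 1241, 1300.4 and 1309 CPM, lay within the sham range. The change there was -0.01 ± 0.09 (adjusted p = 0.977). At 3 weeks Ldb3 stood at 1190.4 ± 110.1 CPM in homozygous hearts and 1241 ± 44.2 CPM in wild type hearts (mean ± SD, n = 4 each), which overlapped.

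Myoz2 encodes calsarcin-1 (myozenin 2), which links alpha-actinin to calcineurin at the Z-disc. It fell in homozygous hearts at 5 weeks, where it had 694, 656, 760.4 and 609.7 CPM, against 1053, 974, 1072 and 1026 CPM in wild type hearts (change -0.60 ± 0.07, adjusted p = 2.17e-06). The groups lay apart. At 3 weeks it had 1091, 1124, 1122 and 1448 CPM in homozygous hearts and 1134, 1133, 1076 and 1032 CPM in wild type hearts. Of the 4 homozygous libraries the last lay above all others of that age. At 8 weeks the levels were 1084, 847, 866 and 755 CPM in homozygous, 979, 1057, 1058 and 1089 in heterozygous and 999, 1052 and 884 in wild type hearts, which overlapped (change -0.17 ± 0.12 against wild type, adjusted p = 0.265). Against heterozygous hearts the change of -0.26 ± 0.12 missed the threshold (adjusted p = 0.0622). It was called by DESeq2 (adjusted p = 0.0294), limma-voom (adjusted p = 0.0484) and the edgeR fit of all 39 libraries (adjusted p = 0.0473), and by no other setting that kept all libraries.

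After ischemia-reperfusion Myoz2 averaged 700.3 ± 109.7 CPM, after infarction 863 ± 91.9 CPM and in shams 861 ± 47.6 CPM (mean ± SD, n = 4 each). The change after ischemia-reperfusion, -0.30 ± 0.11, missed the threshold (adjusted p = 0.0521) and passed it without ischemia-reperfusion replicate 3 (-0.40, adjusted p = 0.0106). It was also called by DESeq2 (adjusted p = 0.0273), by limma-voom (adjusted p = 0.041) and in the edgeR fit of all 39 libraries (adjusted p = 0.0261).

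Actn2, the gene for the cardiac alpha-actinin that crosslinks actin at the Z-disc, fell in homozygous hearts at 5 weeks and after ischemia-reperfusion. At 5 weeks it had 1816, 1693, 1907 and 1729.7 CPM in homozygous hearts and 2287, 2149, 2165 and 2205 CPM in wild type hearts, with no overlap (change -0.30 ± 0.07, adjusted p = 0.00131). At 8 weeks it averaged 2489.6 ± 265 CPM in homozygous (n = 4), 2580.2 ± 76.4 in heterozygous (n = 4) and 2523 ± 214 in wild type hearts (n = 3, mean ± SD). The groups overlapped, and the change against wild type was -0.04 ± 0.12 (adjusted p = 0.768). After ischemia-reperfusion Actn2 had 1734, 2004, 1673 and 1508 CPM, below 2108 and 2054 CPM in the 12-week and 2536 and 2336 CPM in the 20-week shams (change -0.39 ± 0.10, adjusted p = 0.00971). Infarcted hearts, at 2349 ± 93.4 CPM (mean ± SD, n = 4), overlapped the shams. At 3 weeks Actn2 stood at 2679 ± 151 CPM in homozygous hearts and 2833 ± 80.9 CPM in wild type hearts (mean ± SD, n = 4 each), which overlapped.

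Nebl encodes nebulette, a nebulin relative that binds actin and the Z-disc. It was the scarcest of the 9 per length, and of the homozygous comparisons it passed none. At 5 weeks it averaged 233 ± 32.0 CPM in homozygous hearts and 248 ± 13.2 CPM in wild type hearts (mean ± SD, n = 4 each; change -0.09 ± 0.08, adjusted p = 0.428). At 8 weeks the level was 140.0 ± 29.0 CPM in homozygous (n = 4), 165 ± 8.06 in heterozygous (n = 4) and 159 ± 12.8 CPM in wild type hearts (n = 3, mean ± SD; change -0.21 ± 0.14 against wild type, adjusted p = 0.188). After ischemia-reperfusion it fell, with 198, 227, 202 and 208 CPM, against 266 and 237 CPM in the 12-week and 279 and 251 CPM in the 20-week shams. These groups lay apart (change -0.31 ± 0.08, adjusted p = 0.00881). After infarction Nebl had 241 ± 15.5 CPM (mean ± SD, n = 4), which overlapped the shams.

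The M-band genes Myom1 and Myom2 encode myomesins, which crosslink thick filaments. Myom1 fell in homozygous hearts at 5 weeks, with 1082, 922, 1158 and 978 CPM, against 1612, 1536, 1521 and 1642 CPM in wild type hearts (change -0.61 ± 0.08, adjusted p = 2.99e-06). At 3 weeks it had 1468, 1483, 1127 and 1524 CPM in homozygous hearts and 1757, 1959, 1939 and 1822 CPM in wild type hearts. The groups did not overlap at either age, and the 3-week change of -0.43 ± 0.10 was not called by edgeR (adjusted p = 0.241). At 8 weeks the homozygous libraries were spread out, with 1828, 1229.9, 1404 and 999.6 CPM, against 1528 ± 97.2 CPM in heterozygous (n = 4) and 1513 ± 114 CPM in wild type hearts (n = 3, mean ± SD). The change against wild type was -0.17 ± 0.17 (adjusted p = 0.391).

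After ischemia-reperfusion Myom1 had 1073, 1229, 1274 and 1013 CPM and after infarction 1695, 1872, 1576 and 1762 CPM, against 1409.7 and 1491 CPM in the 12-week and 1753 and 1508 CPM in the 20-week shams. After ischemia-reperfusion all libraries lay below all shams (change -0.43 ± 0.10, adjusted p = 0.00475). Infarcted hearts overlapped the shams (change 0.17 ± 0.10, adjusted p = 0.313). Myl12a, which shares exonic bases with Myom1, was not called at 5 weeks (change 0.04), at 8 weeks (0.19) or after ischemia-reperfusion (-0.20).

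Myom2 was the 1 gene of the 9 that rose in a comparison of mutant or operated hearts with controls. At 8 weeks it had 2438, 2497, 2366 and 1903 CPM in homozygous, 1520.1, 1604, 1303 and 1386 in heterozygous and 1549, 1389 and 1115 in wild type hearts. Every homozygous library lay above every other library of that age. The change was 0.74 ± 0.14 (adjusted p = 0.000714) against wild type and 0.63 ± 0.13 (adjusted p = 0.00105) against heterozygous hearts.

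At 3 weeks Myom2 had 1107, 1102, 1318 and 2267 CPM in homozygous hearts and 515, 811, 1049 and 883 CPM in wild type hearts. Those groups lay apart, with 1 homozygous library far above the rest, and the change of 0.82 ± 0.25 was not called (adjusted p = 0.299). At 5 weeks it averaged 1025 ± 49.3 CPM in homozygous hearts and 1032 ± 145 CPM in wild type hearts (mean ± SD, n = 4 each), a change of -0.01 ± 0.08.

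In the surgery set Myom2 had 2183, 2342, 1468 and 1395 CPM after ischemia-reperfusion, 1683, 1721, 1631 and 2027 CPM after infarction, 1240.3 and 3298 CPM in the 12-week and 1790.3 and 1324 CPM in the 20-week shams. The second 12-week sham was the highest of all 39 libraries. Without it the change was 0.35 after ischemia-reperfusion and 0.28 after infarction, neither called, beside -0.05 ± 0.26 (adjusted p = 0.907) and -0.12 ± 0.26 (adjusted p = 0.819) with it.

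The ratio of Myom2 to Myom1 counts within a library needs no scaling between libraries. On the log2 scale it was 0.42, 1.02, 0.75 and 0.93 in homozygous, -0.05, 0.07, -0.10 and -0.22 in heterozygous and -0.07, -0.12 and -0.33 in wild type hearts at 8 weeks. At 5 weeks it was -0.12, 0.20, -0.11 and -0.01 in homozygous and -0.85, -0.32, -0.61 and -0.71 in wild type hearts. At 3 weeks it was -0.41, -0.43, 0.23 and 0.57 in homozygous and -1.77, -1.27, -0.89 and -1.04 in wild type hearts. At each age every homozygous library had a higher ratio than every wild type library.

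The mean difference in this log2 ratio, homozygous minus wild type, was 1.23 at 3 weeks, 0.61 at 5 weeks and 0.95 at 8 weeks, and 0.85 against heterozygous hearts at 8 weeks. In each of these 4 comparisons the two-sided exact permutation test gave p = 0.0286, the smallest it allows, and 0.05 after adjustment over the 7 comparisons made, which is not under the threshold of 0.05. Heterozygous and wild type hearts differed by 0.10 (exact permutation p = 0.343). Against the shams, at -0.18 and 1.15 for 12 weeks and 0.03 and -0.19 for 20 weeks, the ratio was 1.03, 0.93, 0.20 and 0.46 after ischemia-reperfusion and -0.01, -0.12, 0.05 and 0.20 after infarction. These overlapped, with differences of 0.45 (exact permutation p = 0.257) and -0.17 (exact permutation p = 0.943). Without the second 12-week sham the difference was 0.77 after ischemia-reperfusion (exact permutation p = 0.0571) and 0.14 after infarction (exact permutation p = 0.171), which turned the direction of the infarction value.

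**Figure D3:**
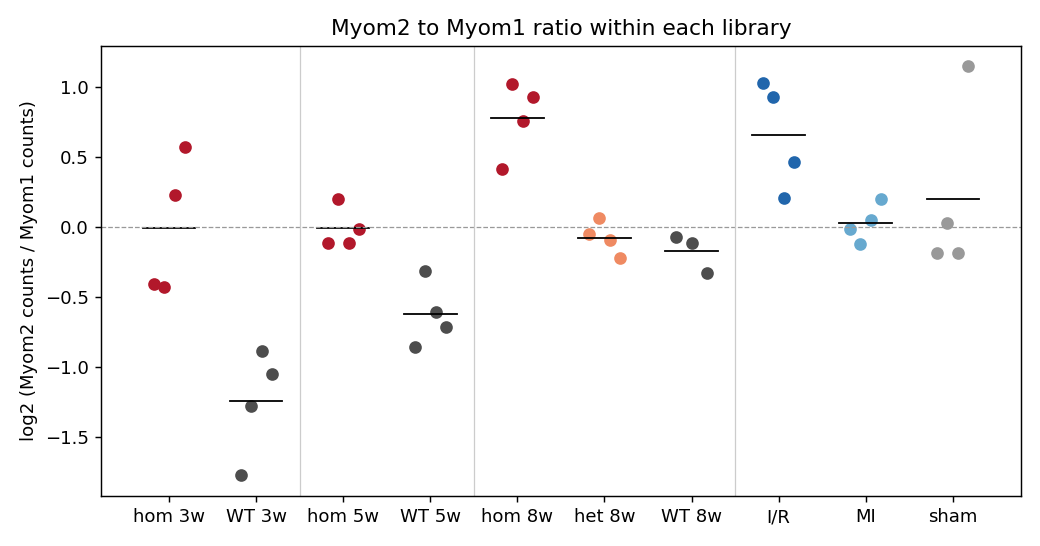
Log2 ratio of Myom2 to Myom1 counts in each library, by group, where 0 means equal counts. Points are libraries and bars are group means. At 3, 5 and 8 weeks all homozygous points lie above all wild type points, and the second 12-week sham lies above the other shams.

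Mybpc3 encodes cardiac myosin-binding protein C, which sits in the A-band on myosin and titin and is part of neither the Z-disc nor the M-band. At 5 weeks it fell, with 3533, 3346, 3727 and 3174 CPM in homozygous hearts, against 4529.7, 4112, 4081 and 4339.8 CPM in wild type hearts (change -0.31 ± 0.07, adjusted p = 0.00246). At 3 weeks the groups also lay apart, at 4347, 5044, 4946 and 4185 CPM in homozygous hearts and 5333, 5149, 5049 and 5366 CPM in wild type hearts, without passing the test (change -0.18 ± 0.09, adjusted p = 0.467). At 8 weeks the homozygous libraries ranged widely, at 5784, 3538, 4774 and 3934 CPM, beside 5397, 5494, 5508 and 5917 CPM in heterozygous and 5438, 5578 and 4366 CPM in wild type hearts (change -0.21 ± 0.17 against wild type, adjusted p = 0.306). Against heterozygous hearts the change of -0.33 ± 0.16 was not called (adjusted p = 0.0849). DESeq2 (adjusted p = 0.0345) and the edgeR fit of all 39 libraries (adjusted p = 0.00895) called it, and no other setting that kept all libraries did.

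On the TMM-normalized scale the 2 injuries stood on opposite sides of the shams for Mybpc3. It had 3734, 3894, 3687 and 3599 CPM after ischemia-reperfusion and 5139, 5391, 5094 and 5620.5 CPM after infarction, against 4162 and 4658 CPM in the 12-week and 4729.5 and 4598 CPM in the 20-week shams. Neither operated group overlapped the shams. The change was -0.28 ± 0.09 (adjusted p = 0.0211) after ischemia-reperfusion, and this call was lost without the first 20-week sham (adjusted p = 0.0556). It was also lost in edgeR under library size scaling (change -0.05, adjusted p = 0.61) and with age-matched shams (adjusted p = 0.114). With replicate number as a block it was lost too (adjusted p = 0.0835), while DESeq2 and limma-voom kept it. After infarction the change of 0.23 ± 0.09 was not called (adjusted p = 0.102).

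Of the 8-week homozygous hearts, replicate 1 had the highest level of the group in 8 of the 9 genes. Without it 7 of the 9 passed against wild type, 6 lower and 1 higher. Of all genes 8868 then passed, 4556 higher and 4312 lower, beside 8553 of 14314 with it. Tcap then changed by -1.36, Ldb3 by -0.84 and Ttn by -0.66. Myoz2 (adjusted p = 0.0157), Myom1 (adjusted p = 0.0211) and Mybpc3 (adjusted p = 0.0256) joined them below wild type, and Myom2 changed by 0.71. Against heterozygous hearts 8 of the 9 passed without it, 7 lower and 1 higher. Of all genes 9111 passed there, 4679 higher and 4432 lower, beside 8864 of 14314 with that replicate. The summed level of 12 cardiomyocyte markers outside the sarcomere was 25395 CPM in that replicate and between 16000.2 and 17916 CPM in the other 3 homozygous hearts, against 39794 to 41802 CPM in wild type hearts. Its macrophage marker sum was 1664 CPM, the lowest of the 4, and the part of either in these results was not tested.

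**Figure D4:**
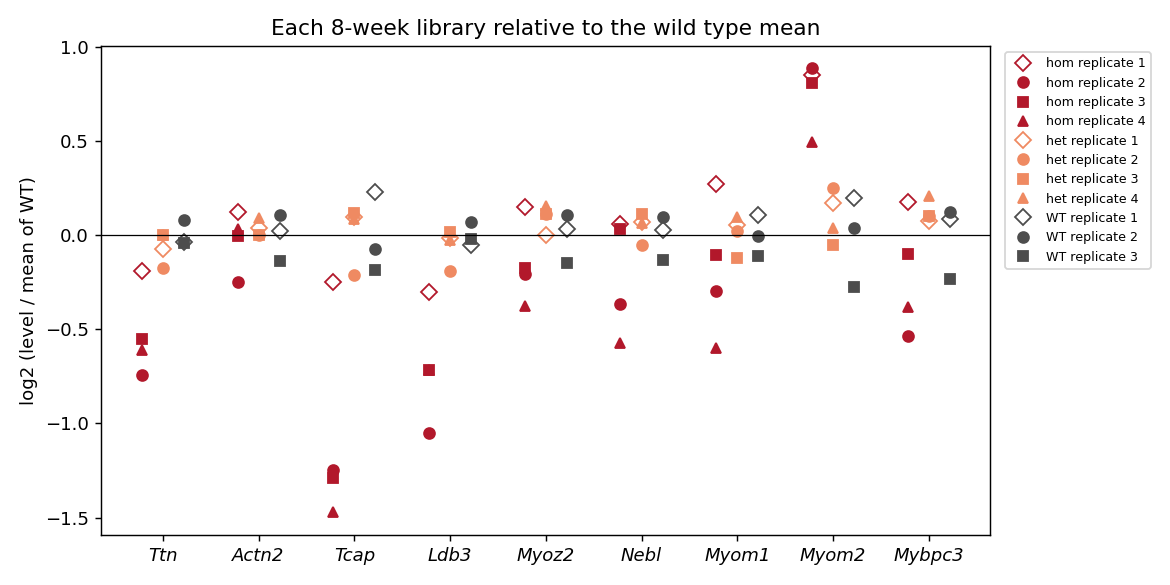
Log2 level of each of the 9 genes in every 8-week library relative to the wild type mean, with 0 as the wild type mean. Homozygous replicate 1 lies nearer to wild type than the other homozygous libraries for Tcap, Ldb3 and Ttn, and all homozygous libraries lie above 0 for Myom2.

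Heterozygous hearts did not differ detectably from wild type hearts at 8 weeks. None of the 9 genes passed edgeR's test, where 0% of all 14314 genes did, and none of the 9 had an unadjusted p under 0.05 (326 of all genes had). DESeq2 and limma-voom also called 0 of the 9 and 0 of all genes. The changes lay between -0.06 (Ttn) and 0.12 (Mybpc3), with SE from 0.12 (Actn2) to 0.25 (Tcap). All 9 pairs of groups overlapped, but the share of all genes with such overlap is not given here.

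The effect of genotype differed between ages for some of the 9. In a fit of all libraries, the homozygous change was more negative at 5 than at 3 weeks for Myoz2 by 0.73 ± 0.15 (difference -0.73, adjusted p = 0.000503) and for Ldb3 (difference -0.45 ± 0.14, adjusted p = 0.0179). These were 2 of the 9, where 20.4% of all genes passed and 9.29% were lower. Between 8 and 5 weeks 3 of the 9 passed, 2 higher and 1 lower, where 28.2% of all genes passed, 14.4% higher and 13.8% lower. Myoz2 (0.46 ± 0.15, adjusted p = 0.0221) and Myom1 (0.46 ± 0.17, adjusted p = 0.0432) were less far below wild type at 8 weeks, and Ttn (-0.34 ± 0.13, adjusted p = 0.0448) was further below it. This count fell to 1 or 0 when any of 8 libraries was left out: wild type 2 or 3 or homozygous 2 or 4 at 5 weeks, or wild type 2 or 3 or homozygous 1 or 3 at 8 weeks. The number of all genes passing in those fits is not given here. The Ttn call was lost without any 1 of 10 libraries (wild type 2 or 3 or homozygous 2, 3 or 4 of either age), with a smallest difference of -0.27 (adjusted p = 0.106) without homozygous 2 of 8 weeks, and with no filter (adjusted p = 0.0737). Without homozygous replicate 1 of 8 weeks Ttn alone passed (-0.46, adjusted p = 0.000926). The Myom1 call was also lost without any 1 of 10 libraries (wild type 1, 2, 3 or 4 or homozygous 2 or 4 of 5 weeks, or wild type 2 or 3 or homozygous 1 or 3 of 8 weeks) and with no filter (adjusted p = 0.0763), and that of Myoz2 without homozygous 4 of 5 weeks or wild type 3 or homozygous 1 of 8 weeks.

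Set beside infarction, the 8-week homozygous effect differed for 4 of the 9, 1 higher and 3 lower, where 37.4% of all genes passed, 19.6% higher and 17.7% lower. The differences were -0.67 ± 0.14 for Ldb3 (adjusted p = 0.00038), -0.41 ± 0.15 for Mybpc3 (adjusted p = 0.0273), -0.35 ± 0.13 for Ttn (adjusted p = 0.0276) and 0.88 ± 0.34 for Myom2 (adjusted p = 0.0374). The Myom2 difference was 0.46 without the second 12-week sham (adjusted p = 0.237), and its call was also lost without any of several single libraries: wild type 2 or 3 or homozygous 1, 2 or 3 of 8 weeks, or infarction 1, 2 or 3. The Ttn call was lost without wild type 2 or homozygous 2 of 8 weeks, and that of Mybpc3 without wild type 1 or 2 or homozygous 2, so that 1 of the 9, Ldb3, passed without wild type 2 or homozygous 2. How many of all genes passed with a library left out is not given here. Age also separates the homozygous and infarction sets and cannot be told apart from the conditions.

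Compared directly, hearts after ischemia-reperfusion were lower than hearts after infarction for 6 of the 9 genes and higher for none. Of all genes 22.4% passed in either direction, and the share that was lower is not given here. The median change of the 9 was -0.35, beside 0.005 over all genes. The changes were -0.59 ± 0.12 for Myom1, -0.54 ± 0.10 for Ldb3, -0.51 ± 0.10 for Mybpc3, -0.44 ± 0.08 for Actn2, -0.35 ± 0.09 for Ttn and -0.30 ± 0.10 for Myoz2. Adjusted p ran from 0.000101 for Ldb3 to 0.0321 for Myoz2, whose groups overlapped. The Myoz2 call was lost without ischemia-reperfusion replicate 2 (adjusted p = 0.0869) or 4 (adjusted p = 0.107) and without infarction replicate 3 (adjusted p = 0.0835) or 4 (adjusted p = 0.129). Age (12 against 20 weeks) and time after surgery differ between these groups and cannot be told apart from the kind of injury. Myl12a also fell here (-0.37, adjusted p = 0.0149), beside Myom1.

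In wild type hearts 3 of the 9 differed between 5 and 3 weeks, 1 higher and 2 lower at 5 weeks, where 22.8% of all genes passed, 12.7% higher and 10.1% lower. Nebl had 256, 261, 241 and 232 CPM at 5 weeks and 178, 141, 179 and 203 CPM at 3 weeks (change 0.50 ± 0.11, adjusted p = 0.00075). Actn2 (-0.36 ± 0.08, adjusted p = 0.00135) and Mybpc3 (-0.29 ± 0.10, adjusted p = 0.0337) were lower at 5 weeks. At 3, 5 and 8 weeks Nebl averaged 175, 248 and 159 CPM in wild type hearts. Actn2 averaged 2833, 2202 and 2523 CPM and Mybpc3 5224, 4266 and 5127 CPM. The 5-week libraries carry sample names of another form than those of 3 and 8 weeks, and had lower totals. For 5 weeks, age and set of libraries cannot be told apart, here or in the differences between ages above. The Mybpc3 call was lost without wild type replicate 1 or 2 of 3 weeks, or 2 or 3 of 5 weeks (adjusted p 0.0572 to 0.0796). Between 8 and 3 weeks none of the 9 passed edgeR's test, where 8.40% of all genes did. At an unadjusted p under 0.05 there were 2 of the 9 and 3329 of all 14931 genes. Without wild type replicate 3 of 3 weeks 1 of the 9 passed, and the number of all genes passing there is not given here. Myom2 had 515, 811, 1049 and 883 CPM at 3 weeks, 892, 1234, 998 and 1003 at 5 weeks and 1549, 1389 and 1115 at 8 weeks. The 8-week and 3-week libraries did not overlap (change 0.73 ± 0.25, adjusted p = 0.0582).

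Other genes of the Z-disc moved in both directions in homozygous hearts. The counts for this and the following lists stand beside 43.7% of all genes called at 5 weeks (21.4% lower), 59.8% at 8 weeks (29.0% lower), 31.0% after ischemia-reperfusion (14.1% lower) and 11.4% after infarction. Of 28 further Z-disc genes, 26 were tested at 5 weeks, where 11 rose and 4 fell (median change 0.07, beside -0.00 over all genes), and 27 at 8 weeks, where 14 rose and 3 fell (median 0.39, beside 0.02). At 5 weeks Xirp2 (1.31), an actin-binding repeat protein, and Synpo2l (1.15), a Z-disc actin-associated protein, rose, and Myot (-1.07), the gene for myotilin, and Synpo2 (-0.35) fell. At 8 weeks Pdlim3 (2.50), the gene for the actinin-associated LIM protein, and Pdlim7 (0.81) rose, and Mypn (-0.81), the gene for myopalladin, and Palld (-0.75) fell. After ischemia-reperfusion 5 of 26 rose and 5 fell (median -0.03, beside -0.02), among them Actn1 (1.20), a non-muscle alpha-actinin, Pdlim7 (0.71), Myot (-0.91) and Synpo2 (-0.60). After infarction 9 of 26 rose and none fell (median 0.32, beside -0.00), led by Pdlim1 (0.60) and Xirp2 (0.92).

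Of 11 further M-band genes, all tested, 2 rose and 6 fell at 5 weeks (median -0.30, beside -0.00 over all genes) and 2 rose and 7 fell at 8 weeks (median -0.53, beside 0.02). Ckm (-1.16 at 5 weeks), the muscle creatine kinase, and Lrrc39 (-0.72 at 5 and -1.01 at 8 weeks), the gene for myomasp, fell, and so did Obsl1 (-1.11 at 8 weeks), the obscurin-like protein that binds titin and myomesin. Sqstm1 (0.97 and 1.46), an autophagy receptor, rose at both ages, Trim54 (0.20) at 5 weeks and Myom3 (1.79), the third myomesin, at 8 weeks. After ischemia-reperfusion none rose and 7 fell (median -0.39, beside -0.02), including Ckm (-0.74) and Lrrc39 (-0.67), and after infarction 1 of 11 fell, Lrrc39 (-0.46, median -0.15).

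Partners of titin's spring region rose more than they fell at 5 weeks, 5 against 2 of 8 (median 0.70, beside the same all-gene medians). At 8 weeks 2 rose and 2 fell of 7 tested (median 0.24). Ankrd1 (2.69 at 5 and 1.95 at 8 weeks), the stress-responsive ankyrin repeat protein CARP, and Fhl1 (1.23 and 1.89), a LIM protein, rose. Smyd1 (-0.42 and -1.05), a muscle methyltransferase, and Capn3 (-0.86 and -1.56), a titin-bound calpain, fell. After ischemia-reperfusion 1 of 7 rose (Fhl1, 0.46) and 2 fell (Capn3, -0.96, and Smyd1, -0.41; median 0.06). After infarction 3 of 7 rose, including Ankrd1 (1.11) and Hsp90aa1 (0.68), and none fell (median 0.47).

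Among 7 splicing regulators known to act on titin or Z-disc mRNAs, Rbm20, the main regulator of titin splicing, fell by 0.33 at 5 weeks, by 0.99 at 8 weeks, by 0.30 after ischemia-reperfusion and by 0.37 after infarction. At 5 weeks 0 rose and 2 fell (with Rbm24, -0.48; median -0.08). At 8 weeks 2 rose (Ptbp1, 0.32, and Mbnl1, 0.20) and 2 fell (with Celf1, -0.50; median -0.01). After ischemia-reperfusion 1 rose (Ptbp1, 0.76) and 2 fell (with Rbm24, -0.30; median -0.20), and after infarction 0 rose and 2 fell (with Rbm24, -0.41; median 0.02).

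Genes of the thick and thin filaments, 14 tested, had 3 higher and 8 lower at 5 weeks (median -0.24), 1 higher and 7 lower at 8 weeks (median -0.43), 0 higher and 8 lower after ischemia-reperfusion (median -0.40) and 1 higher and 1 lower after infarction (median -0.04). Myh7, the beta-myosin heavy chain, rose (3.70 at 5 and 5.43 at 8 weeks), and the light chain gene Myl2 (-0.86 and -1.20) and the troponin gene Tnni3 (-0.80 and -1.47) fell. Library size scaling moved these counts. The Z-disc list then had 17 higher and 1 lower at 5 weeks, 16 and 2 at 8 weeks, and 9 and 2 after ischemia-reperfusion. The M-band list had 2 higher and 4 lower at 5 weeks, 2 and 6 at 8 weeks, and 0 and 2 after ischemia-reperfusion, and the thick and thin filaments 3 and 5, 2 and 5, and 0 and 2. The splicing regulators then had 3 higher and 1 lower at 5 weeks, with no gene lower after ischemia-reperfusion or infarction, so Rbm20 was not called there. Titin's spring partners had 6 higher and 1 lower at 5 weeks, 4 and 2 at 8 weeks, and 4 and 1 after ischemia-reperfusion. In none of these lists, in the TMM-scaled fit, was any gene called at 3 weeks or between heterozygous and wild type hearts.

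Macrophage and fibroblast markers rose in the groups in which some of the 9 genes changed, and some of them also after infarction, where none of the 9 passed. Of 12 cardiomyocyte markers outside the sarcomere, 1 rose and 10 fell at 5 weeks, 0 rose and 9 fell at 8 weeks, 0 rose and 9 fell after ischemia-reperfusion, and 1 rose and 3 fell after infarction. Their summed level was 20875 to 24385 CPM in homozygous and 33694 to 36427 CPM in wild type hearts at 5 weeks. After ischemia-reperfusion it was 24878 to 28668 CPM and after infarction 29979.7 to 36796 CPM, against 34329 to 42232 CPM in shams.

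All 10 macrophage markers rose at 5 weeks, at 8 weeks and after ischemia-reperfusion, and 3 rose after infarction. Their sum was 1921 to 2442 CPM in homozygous and 477 to 523 CPM in wild type hearts at 5 weeks. At 8 weeks it was 1664 to 2993 CPM in homozygous and 458 to 569 CPM in wild type hearts. After ischemia-reperfusion it was 1270.1 to 2007 CPM and 543 to 757 CPM after infarction, against 339.7 to 554 CPM in shams. Fibroblast markers, 10 genes, summed to 6291 to 8303 CPM in homozygous and 2183 to 2412 CPM in wild type hearts at 5 weeks. At 8 weeks this sum was 6616 to 12543 CPM in homozygous and 1699 to 1865 CPM in wild type hearts. All 10 rose at both ages. After ischemia-reperfusion 8 of the 10 rose and after infarction 7 (median change 0.79), and none fell. The sum was 4783 to 9458 CPM after ischemia-reperfusion and 2633 to 4514 CPM after infarction, against 1416 to 2217 CPM in shams, so both operated groups lay above all shams. Of 8 endothelial markers 8 fell at 5 weeks, 3 rose and 4 fell at 8 weeks, 3 fell after ischemia-reperfusion and none passed after infarction (none fell after ischemia-reperfusion under library size scaling, where 6 of the 12 cardiomyocyte markers fell). Of 5 atrial markers, 4 were tested, and 1 rose at 5 weeks, 1 at 8 weeks and 1 after infarction. None of the markers in the cardiomyocyte, macrophage and fibroblast lists was at 0 in every library, and their part in the changes of the 9 genes was not tested.

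Across the 39 libraries, the gene most like each of the 9 was found by Pearson's r of log2(CPM + 1) among 8912 genes with a mean of at least 10 CPM. These values are descriptive, since libraries of a group share their condition. For Ttn it was Map3k20 (r = 0.95) followed by Hspa9 (0.91), and for Ldb3 Pex19 (0.95) followed by Immt (0.94). Actn2 came closest to Mast2 (0.91), Myoz2 to Lims2 (0.90), Mybpc3 to Kif1c (0.89) and Nebl to Arhgap5 (0.89). For Tcap it was Mid1ip1 (0.86), for Myom2 Eif4b (0.83) and for Myom1 Rgp1 (0.81).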

How the data were processed

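Total RNA of left ventricle was isolated with Trizol and sequenced from stranded TruSeq mRNA libraries, per the labels' protocols. STAR 2.7.3a aligned the reads to mm10 and featureCounts of Subread 2.0.0 counted them, per the submitters' processing notes. The authors deposited raw counts, 1 whole number for each gene in each library. Which annotation release and strand setting they used is not given in the sources used here. GENCODE vM21 (GRCm38) gave symbols for 36345 of 38293 IDs, with positions and union exon lengths. Unnamed IDs held 0.13% of counts.

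From these counts, all genes passing filterByExpr were tested with TMM scaling and edgeR 4.0.16 (R 4.3.3), using its quasi-likelihood test, Benjamini-Hochberg adjustment over all genes and a threshold of 0.05. Libraries of 1 age, or of the surgery set, were fitted together. Differences between effects, ages, and the 2 injuries came from 1 fit of all 39 libraries. SE is the absolute log2 change divided by the square root of F. Normalized CPM used TMM over all libraries, and RPKM divides it by exon length, so a CPM ratio can differ from the fitted change. The Myom2 to Myom1 ratio was tested by exact permutation of libraries, two-sided. Replicates were compared in 57 pairs over genes with at least 50 counts, with a chi-square per gene of 4.03 to 97.4. Scripts were tested on simulated data. Alternatives were DESeq2 1.42.0, limma-voom (limma 3.58.1), RLE and library size scaling, no low-count filter, age-matched shams, all 39 libraries fitted together, a replicate block, and each library left out.

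The 9 genes, the partner and marker lists and the tests were chosen with earlier results of these data known. Besides the 9, the text names from each list the 2 genes with the smallest p in each direction per comparison, and the 2 genes most correlated with each of the 9, of which a few are left out for length. Promoters came from RefSeq (GRCm38.p6). Sequencing reads and isoforms were not analysed here.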

Additional observations from a re-analysis of the deposited data

Results flagged for a closer look

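In groups of 4 libraries a value was picked out where its gap to the nearest other library, divided by the range of the group, passed Dixon's 95% critical value. Over 81 gene and group pairs, chance picks out about 1 in 20, and 5 were picked out. For Tcap these were 1184 CPM in homozygous replicate 1 at 8 weeks (the other 3 had 506 to 592 CPM), 1213 CPM in heterozygous replicate 2 at 8 weeks and 801 CPM in wild type replicate 2 at 3 weeks, the lowest of its group. For Myoz2 it was 1448 CPM in homozygous replicate 4 at 3 weeks, the highest of its group, and for Myom1 it was 1127 CPM in homozygous replicate 3 at 3 weeks, the lowest.

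The other results are differences between effects that passed edgeR's interaction test at an adjusted p under 0.05. From 3 to 5 weeks the homozygous change of Ldb3 differed by -0.45 and that of Myoz2 by -0.73. From 5 to 8 weeks it differed by -0.34 for Ttn, 0.46 for Myoz2 and 0.46 for Myom1. The 8-week homozygous effect minus the infarction effect was -0.35 for Ttn, -0.67 for Ldb3, 0.88 for Myom2 and -0.41 for Mybpc3.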

How the results depend on the processing

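No result for a single gene of the 9 changed sign once called. Of 621 gene results under other settings, 586 kept their side of the threshold, 16 lost it and 19 gained it. Of 1107 with 1 library left out, 1043 kept it, 46 lost it and 18 gained it. The cause of the changes below was not tested. At 3 weeks the count of the 9 genes called was 2 with DESeq2 (0 in edgeR), and that of all genes was 118 with DESeq2, 25 with no filter and 40 with all libraries in the fit. For ischemia-reperfusion 2 of the 9 passed under library size scaling and 2 with age-matched shams, which leave fewer samples, where 2174 of all genes passed (4222 with pooled shams). After infarction 1 of the 9 passed under library size scaling and 1 with DESeq2, and 853 of all genes with age-matched shams (1550 with pooled shams). For 5 minus 3 weeks 1 of the 9 passed under library size scaling. For wild type hearts at 8 against 3 weeks 1 passed under library size scaling and 1 with no filter. For 8 minus 5 weeks 1 passed with no filter. The number of all genes called is not given here for library size scaling or for infarction with DESeq2. Nor is it given for the comparisons between ages in this paragraph. These counts of the 9 therefore stand beside no share of all genes.

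With 1 library left out, the count of all genes at 3 weeks ran from 0 to 4 and after infarction from 663 to 1570.0. The count of the 9 ran from 4 to 7 for homozygous against wild type hearts at 8 weeks, from 4 to 8 against heterozygous hearts, from 0 to 1 for wild type hearts at 8 against 3 weeks, from 0 to 3 for 8 minus 5 weeks, and from 1 to 5 for the homozygous minus the infarction effect. Of all genes, 7579 to 8868 were called against wild type hearts and 8081 to 9111 against heterozygous hearts. For the other comparisons in that list the number of all genes called is not given here. The mean difference in the log2 ratio of Myom2 to Myom1, homozygous minus wild type, ran from 0.54 to 0.72 at 5 weeks. At 8 weeks this difference ran from 0.87 to 1.08 against wild type and from 0.77 to 0.98 against heterozygous hearts. With 3 libraries against 4, or 2 against 4, the exact test has fewer permutations.

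Whether equal replicate numbers pair the samples was not settled. Correlations of same-numbered homozygous, heterozygous and wild type libraries lay between -0.14 and 0.23, and those of operated hearts and shams between -0.26 and 0.20. They were not set beside correlations of differently numbered libraries. With the replicate block 6 of the 9 passed at 5 weeks, 4 at 8 weeks against wild type, 4 against heterozygous hearts, 6 after ischemia-reperfusion and 0 at 3 weeks, after infarction and in heterozygous hearts. Counts of all genes under the block are not given here, so these counts stand beside no share of all genes. The 6 after ischemia-reperfusion were not the same genes: under the block Actn2 (adjusted p = 0.0572) and Mybpc3 (adjusted p = 0.0835) did not pass, and Tcap (-0.79, adjusted p = 0.0167) and Myoz2 (adjusted p = 0.0316) did. Isoforms and the strand of reads limit what gene counts can show.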
